A study of Mus musculus with 9 samples.

Results

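Aminoacyl-tRNA synthetases are the enzymes that load each transfer RNA with its own amino acid before protein synthesis. Their transcripts were measured on 9 mouse arrays of 3 cell groups. A probe set, the group of short array sequences that reports 1 transcript, was a member when its single annotated gene symbol was that of a cytosolic or mitochondrial synthetase. This gave 48 of 22690 probe sets and 26 of the 38 synthetase genes listed. Of the 26 genes, 16 encode cytosolic enzymes, 8 mitochondrial enzymes, and 2, Gars and Kars, enzymes that serve both compartments. The other genes listed had no probe set that carried their symbol alone, and were not analysed here.

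The first group, called L-GMP-derived here, consisted of cells propagated in vitro from L-GMP. L-GMP are cells resembling granulocyte-macrophage progenitors that were sorted from leukemic bone marrow. GMP are normal granulocyte-macrophage progenitors, bone marrow cells on their way to becoming granulocytes or macrophages. Each group had 3 arrays. The series title names MLL-AF9, a fusion of the histone methyltransferase gene Mll with the partner gene AF9, as the transforming gene of the leukemia. The titles of the L-GMP-derived arrays are codes and their source is given as L-GMP. They were assigned to the propagated cells because the design text leaves no other group, which limits every statement on them. The labels give no strain, age, promoter or vector of the fusion gene, culture condition or transplant host, and do not tell whether replicate arrays represent separate animals or cultures. The p-values therefore measure the spread between arrays, which may be technical.

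Each synthetase first activates its amino acid with ATP and then joins it to the matching tRNA. Animal cells keep separate enzymes for cytosolic and for mitochondrial protein synthesis, nearly all encoded by different nuclear genes, and several cytosolic enzymes sit together in the multi-synthetase complex. When a charged tRNA runs short, the uncharged tRNA is sensed by the kinase GCN2, the translation of the transcription factor ATF4 goes up, and several cytosolic synthetase genes are known ATF4 targets.

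The values are array intensities on a linear scale. Fold changes were fitted with limma on log2 signals and adjusted over all 14578 probe sets tested, and a gene was called higher or lower at an adjusted p below 0.05. Each gene stands for its brightest tested probe set, which left 8965 genes, 25 of them synthetases. Sars2, the mitochondrial seryl-tRNA synthetase gene, did not reach the signal of 111 that was asked for on at least 3 arrays: its 9 values lay between 37.6 and 58.7. None of the other 25 was at the floor of 62.4 on any array. Signals of different probe sets were added up only in the sums of marker lists, which also hold untested genes and values under the floor. Outside those sums, such signals were not compared with each other, and only fold changes were set side by side.

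Array-wide, 2% trimmed means lay within 4.02% of each other's mean. One array stood apart: L-GMP-derived replicate 1 correlated at 0.958 and 0.964 with its fellow replicates, which correlated at 0.989 with each other. Hoxa9, a homeobox gene that MLL fusions switch on, had a mean signal (± SD of 3 arrays) of 5417 ± 508 in L-GMP-derived cells, 5433 ± 162 in L-GMP and 1599 ± 182 in GMP. Meis1, its partner, averaged 1069.6 ± 179 in L-GMP-derived cells, 2108 ± 176 in L-GMP and 505 ± 36.7 in GMP. Of 9 progenitor markers, 4 were lower in L-GMP-derived cells than in GMP, against 10.7% of all genes. The 4 were Mpo, Kit, Cd34 and Csf1r. Cd34, a stem and progenitor antigen, averaged 36.4 ± 18.5 in L-GMP-derived cells, against 568 ± 68.9 in GMP. Its highest L-GMP-derived value, 55.6, lay under the floor. Elane, Prtn3, Ctsg, Cebpa and Fcgr3 were not called there (log2 fold changes between -0.52 and 0.11). The 3' to 5' signal ratio of beta-actin, a measure of RNA integrity, was 7.10 ± 0.140 in L-GMP-derived cells, 5.17 ± 0.355 in L-GMP and 7.37 ± 0.648 in GMP. That of Gapdh ordered the groups differently, with 7.21 ± 1.78, 8.09 ± 3.05 and 7.86 ± 0.855 in turn, and L-GMP replicate 3 at 11.6.

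The first comparison asked how synthetase transcripts in L-GMP differed from those in GMP, the normal cells that the leukemic cells resemble. Several cytosolic synthetase genes were lower in L-GMP, and Vars was higher. In all, 8 of the 25 synthetase genes (32%) were lower in L-GMP, against 12.8% of all 8965 genes, and 1 (4%) was higher, against 13.1% of all genes. The 8 were Hars, Wars, Eprs, Iars, Farsb, Nars, Gars and Fars2: 6 of the 16 cytosolic genes, 1 of the 2 that serve both compartments and 1 of the 7 mitochondrial genes tested. The median log2 fold change was -0.18 over the 25 genes, and -0.01 over all genes. Groups did not overlap at 14 of the 25 genes (56%), against 46.9% of all genes. When probe sets that can also bind related transcripts were left out, 3 genes were lower: Hars, Nars and Gars.

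Fars2 encodes the mitochondrial phenylalanyl-tRNA synthetase. Its signal (1439406_x_at) was 192, 219.8 and 217 on the L-GMP-derived arrays, 270.1, 194 and 194 on the L-GMP arrays, and 417, 393 and 458 on the GMP arrays. All 6 arrays of leukemic origin lay below the 3 GMP arrays. Its log2 fold change was -0.96 in L-GMP against GMP (SE 0.148, adjusted p = 0.000955) and -1.01 in L-GMP-derived cells against GMP (SE 0.148, adjusted p = 0.000773), a 1.94-fold and a 2.02-fold lower signal. These comparisons share the GMP arrays. A second Fars2 probe set, 1431354_a_at, gave 146, 126 and 120.5 in L-GMP-derived cells, 174, 106 and 148 in L-GMP, and 148, 162 and 124 in GMP. Its groups overlapped and its log2 fold changes, -0.04 in L-GMP against GMP and -0.14 in L-GMP-derived cells against GMP, were not called (adjusted p = 0.901 and 0.645). The lower Fars2 signal was thus measured by 1 of 2 probe sets, the one whose name ends in _x_at, which can also bind related transcripts.

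Hars, the cytosolic histidyl-tRNA synthetase gene, was among the cytosolic members with the lowest log2 fold changes in L-GMP against GMP. Its signal (1438510_a_at) was 2643, 3914 and 3963 on the L-GMP-derived arrays, 1923, 1843 and 1314 on the L-GMP arrays, and 2816, 2986 and 3148 on the GMP arrays. The L-GMP arrays lay below all others, while the L-GMP-derived group overlapped with GMP, its replicate 1 lying below the GMP arrays. The log2 fold change was -0.84 in L-GMP against GMP (SE 0.173, adjusted p = 0.00521) and 1.05 in L-GMP-derived cells against L-GMP (adjusted p = 0.00124). L-GMP-derived cells against GMP gave 0.21 (adjusted p = 0.414), and 0.40 (adjusted p = 0.0521) without L-GMP-derived replicate 1. A second Hars probe set, 1417024_at, gave smaller log2 fold changes: -0.33 in L-GMP against GMP, which was not called (adjusted p = 0.0573), and 0.65 in L-GMP-derived cells against L-GMP (adjusted p = 0.00173).

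Wars, the cytosolic tryptophanyl-tRNA synthetase gene, had a signal (1434813_x_at) of 558, 557 and 507 in L-GMP-derived cells, 288, 281 and 287 in L-GMP, and 448, 456 and 435 in GMP. The 3 groups did not overlap. Its log2 fold change was -0.65 in L-GMP against GMP (SE 0.102, adjusted p = 0.00107), 0.92 in L-GMP-derived cells against L-GMP (adjusted p = 0.000101) and 0.27 in L-GMP-derived cells against GMP (adjusted p = 0.0754). Another tested Wars probe set, 1415694_at, gave log2 fold changes of 0.11, -0.12 and -0.00 in the same order of comparisons, none of them called.

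Eprs encodes a fused enzyme that charges tRNA with glutamate and with proline, and is part of the multi-synthetase complex. Its signal (1426713_s_at) was 2188, 2089.6 and 1809 in L-GMP-derived cells, 818, 819.9 and 766 in L-GMP, and 1289, 1187 and 1239 in GMP. Again no groups overlapped, with L-GMP-derived cells highest and L-GMP lowest. The log2 fold change was -0.63 in L-GMP against GMP (SE 0.10, adjusted p = 0.00117), 0.71 in L-GMP-derived cells against GMP (adjusted p = 0.000624) and 1.34 in L-GMP-derived cells against L-GMP (adjusted p = 9.03e-06). All 3 tested Eprs probe sets were called higher in both comparisons of L-GMP-derived cells, and 1 of the 3 was called lower in L-GMP against GMP.

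Vars, the cytosolic valyl-tRNA synthetase gene, was the only member higher in L-GMP than in GMP. Its signal (1448472_at) was 1029, 709 and 787 in L-GMP-derived cells, 716, 692 and 611 in L-GMP, and 387, 463 and 422 in GMP. The L-GMP-derived and L-GMP arrays all lay above GMP and overlapped with each other. L-GMP exceeded GMP 1.59-fold (0.67 on the log2 scale, SE 0.152, adjusted p = 0.00881), and L-GMP-derived cells exceeded GMP 1.97-fold (log2 fold change 0.97, adjusted p = 0.00114). Between L-GMP-derived cells and L-GMP the log2 fold change was 0.31 (adjusted p = 0.158).

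**Figure D1:**
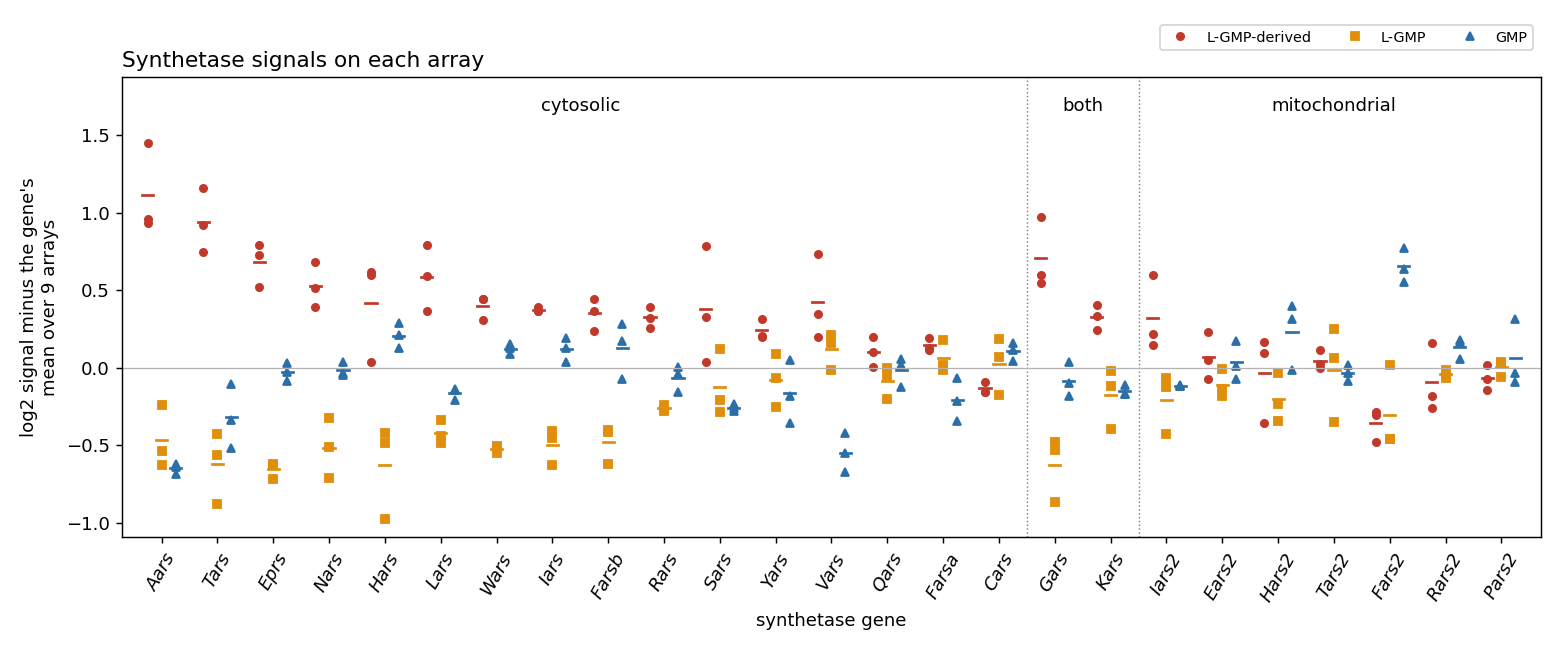
Signals of the 25 tested synthetase genes on each array, as log2 signal minus the gene's mean over 9 arrays (y axis), for cytosolic genes, genes of both compartments and mitochondrial genes (x axis). Circles are L-GMP-derived, squares L-GMP and triangles GMP arrays, and short lines are group means; circles lie highest at most cytosolic genes, and Fars2 is the gene at which GMP lies apart above both other groups.

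The second comparison set L-GMP-derived cells against GMP. Cytosolic synthetase genes were mostly higher in the propagated cells and mitochondrial ones were not. In all, 12 of the 25 genes (48%) were higher, against 13.4% of all genes, and 1, Fars2 (4%), was lower, against 10.7% of all genes. The 12 comprised 10 of the 16 cytosolic genes (Aars, Tars, Vars, Lars, Eprs, Sars, Nars, Rars, Farsa and Iars), both genes that serve the 2 compartments (Gars and Kars) and 0 of the 7 mitochondrial genes, of which 1, Iars2, had an unadjusted limma p below 0.05. The median log2 fold change was 0.35 over the 25 genes, and 0.00 over all genes. Groups did not overlap at 17 of the 25 genes (68%), against 41% of all genes. Without GMP replicate 2 or GMP replicate 3 the count of higher genes was 7, without L-GMP-derived replicate 2 it was 8, and without L-GMP-derived replicate 1, the array that stood apart, it was 11, with 2 lower.

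Aars, the cytosolic alanyl-tRNA synthetase gene, was among the members with the largest log2 fold changes in both comparisons of L-GMP-derived cells. Its signal (1451083_s_at) was 2433, 1699.7 and 1729 in L-GMP-derived cells, 754, 612 and 575 in L-GMP, and 552, 579 and 569 in GMP. The L-GMP-derived arrays lay far above the other 6, and L-GMP overlapped with GMP. L-GMP-derived cells exceeded GMP 3.40-fold (1.77 on the log2 scale, SE 0.157, adjusted p = 2.67e-05) and L-GMP 3.0-fold (log2 fold change 1.58, adjusted p = 5.09e-05). Without L-GMP-derived replicate 1, the array with the highest Aars signal, these log2 fold changes were 1.60 and 1.42. A second Aars probe set, 1423685_at, also passed the threshold in both comparisons, with log2 fold changes of 1.04 and 0.76. In L-GMP against GMP the Aars log2 fold change was 0.18 (adjusted p = 0.443).

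Tars, the cytosolic threonyl-tRNA synthetase gene, had a signal (1460323_at) of 625, 529 and 471 in L-GMP-derived cells, 208, 152 and 190.0 in L-GMP, and 261, 196 and 221 in GMP. Every L-GMP-derived array was above every other array, and L-GMP overlapped with GMP. L-GMP-derived cells exceeded GMP 2.40-fold (1.26 on the log2 scale, SE 0.164, adjusted p = 0.000361) and L-GMP 2.96-fold (log2 fold change 1.56, adjusted p = 7.24e-05). The log2 fold change in L-GMP against GMP was -0.30 (adjusted p = 0.211).

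Gars encodes the glycyl-tRNA synthetase of cytosol and mitochondria. Its signal (1423784_at) was 2976, 2211 and 2297 in L-GMP-derived cells, 1089, 1048 and 830.4 in L-GMP, and 1334, 1551 and 1415 in GMP. The 3 groups did not overlap, with L-GMP-derived cells highest and L-GMP lowest. L-GMP-derived cells exceeded GMP 1.73-fold (0.79 on the log2 scale, SE 0.141, adjusted p = 0.00256) and L-GMP 2.52-fold (log2 fold change 1.33, adjusted p = 7.75e-05). L-GMP was 1.46-fold lower than GMP (log2 fold change -0.54, adjusted p = 0.0169), a call lost when L-GMP replicate 3 (adjusted p = 0.0602), GMP replicate 2 (0.0722) or GMP replicate 3 (0.0559) was left out.

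The other genes higher in L-GMP-derived cells than in GMP had log2 fold changes between 0.25 and 0.75. Lars (leucine) had 0.75 (adjusted p = 0.000842) and Nars (asparagine) 0.55 (adjusted p = 0.00550). Sars (serine) had 0.64 (adjusted p = 0.0282), Kars (lysine) 0.48 (adjusted p = 0.0173) and Rars (arginine) 0.39 (adjusted p = 0.0203). The call of Sars was lost when L-GMP-derived replicate 3 (adjusted p = 0.0612) or any 1 of the GMP arrays (0.0764 to 0.0805) was left out. Those of Kars and Rars ended without L-GMP-derived replicate 2, GMP replicate 2 or GMP replicate 3, with adjusted p between 0.0555 and 0.0925.

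Farsa and Farsb encode the alpha and beta subunits of the cytosolic phenylalanyl-tRNA synthetase, which work as 1 enzyme. Farsa (1424907_a_at) had a signal of 467, 464 and 489 in L-GMP-derived cells, 433, 424 and 484 in L-GMP, and 369, 337 and 409 in GMP. Farsb (1435103_x_at) had 1941, 2046 and 1776 in L-GMP-derived cells, 1127, 978 and 1139.8 in L-GMP, and 1826, 1432 and 1692 in GMP. The subunits thus differed in which group was lowest: GMP for Farsa and L-GMP for Farsb. The log2 fold change in L-GMP against GMP was 0.27 for Farsa (adjusted p = 0.119) and -0.61 for Farsb (adjusted p = 0.00314). In L-GMP-derived cells against L-GMP it was 0.08 for Farsa (adjusted p = 0.637) and 0.83 for Farsb (adjusted p = 0.000430). The difference between the subunits was not tested. Farsa was called in L-GMP-derived cells against GMP (log2 fold change 0.35, adjusted p = 0.0492), but each of the 9 fits without 1 array lost this call (adjusted p between 0.0520 and 0.182). Farsb was not called there (log2 fold change 0.22, adjusted p = 0.188), although its second tested probe set, 1423709_s_at, was (log2 fold change 0.72, adjusted p = 0.00249).

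The third comparison set L-GMP-derived cells against L-GMP, and shares its arrays with the comparisons above. The labels do not tell whether the propagated cells came from the L-GMP samples on these arrays. It gave the highest medians of cytosolic synthetase genes. In all, 13 of the 25 genes (52%) were higher in L-GMP-derived cells, against 16.6% of all genes, and 0 were lower, against 14.1% of all genes. At an unadjusted limma p below 0.05 the count of lower genes was also 0. They were 10 of 16 cytosolic genes (Aars, Tars, Eprs, Nars, Hars, Lars, Wars, Iars, Farsb and Rars), Gars and Kars, and 1 mitochondrial gene, Iars2. The median log2 fold change was 0.51 over the 25 genes and -0.00 over all genes. Groups did not overlap at 15 of the 25 genes (60%), against 41.2% of all genes. Without L-GMP-derived replicate 1 there were again 13 higher and 0 lower, and over the 9 fits that left out 1 array each, 12 to 14 higher.

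Across the 3 comparisons the 25 genes fell into 8 patterns of calls. Eprs, Iars, Nars and Gars were lower in L-GMP than in GMP and higher in L-GMP-derived cells than in both other groups. Aars, Lars, Rars, Tars and Kars were higher in L-GMP-derived cells than in both other groups, with no call between L-GMP and GMP. Farsb, Hars and Wars were lower in L-GMP than in both other groups, with no call between L-GMP-derived cells and GMP. Vars, Fars2, Iars2, and the pair Farsa and Sars made up the remaining patterns with a call. Cars, Qars, Yars, Ears2, Hars2, Pars2, Rars2 and Tars2 had no call in any comparison.

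**Figure D2:**
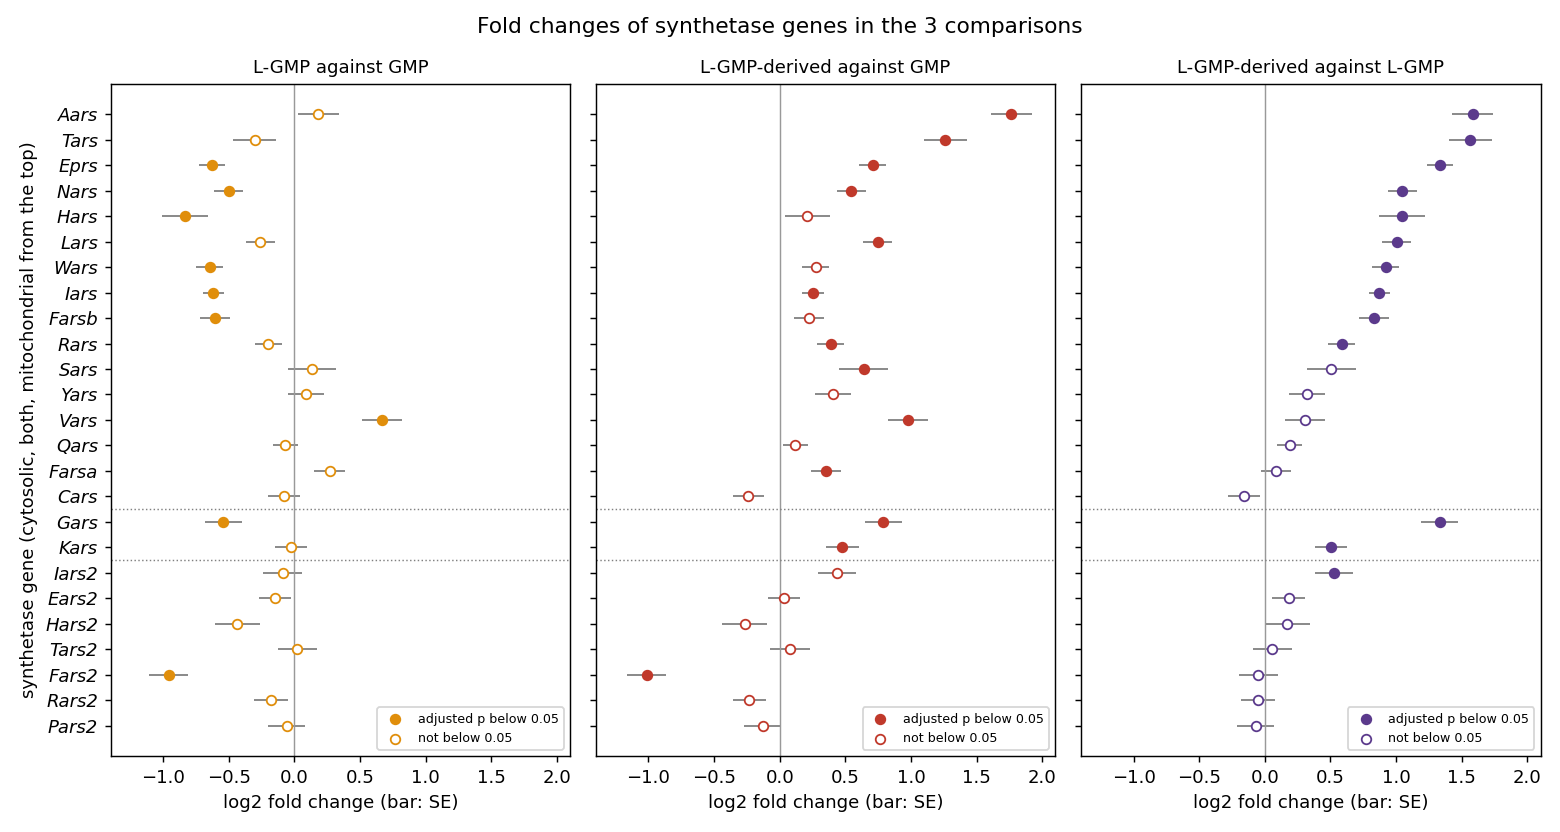
Log2 fold changes of the 25 synthetase genes (x axis; bars are standard errors) in L-GMP against GMP, L-GMP-derived cells against GMP and L-GMP-derived cells against L-GMP, with genes down the page as cytosolic, both and mitochondrial. Filled points had an adjusted p below 0.05; they number 9, 13 and 13 in the 3 panels, and the highest is Aars at 1.77.

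Cytosolic and mitochondrial genes were also summarised apart. The median log2 fold change of the 16 cytosolic genes was -0.23 in L-GMP against GMP, 0.40 in L-GMP-derived cells against GMP and 0.85 in L-GMP-derived cells against L-GMP. That of the 7 mitochondrial genes was -0.15, -0.13 and 0.06 in the same comparisons. The cytosolic median minus the mitochondrial one was therefore -0.08, 0.53 and 0.79, given as a description with no test. Averaged per array as log2 deviation from each gene's mean, the cytosolic genes stood at 0.52, 0.38 and 0.38 on the L-GMP-derived arrays, -0.23, -0.35 and -0.38 on the L-GMP arrays, and -0.09, -0.13 and -0.11 on the GMP arrays. The mitochondrial genes stood at -0.03, 0.00 and -0.03 on the L-GMP-derived arrays, -0.03, -0.23 and -0.12 on the L-GMP arrays, and 0.07, 0.16 and 0.19 on the GMP arrays. Cytosolic averages of L-GMP-derived cells lay above those of all other arrays, and mitochondrial averages were highest on the GMP arrays. The mitochondrial averages include Fars2, whose log2 fold changes of -0.96 and -1.01 against GMP were measured by 1 of its 2 tested probe sets. They are therefore not read as a trait of the whole class, and averages without Fars2 are not given here. In bulk cell samples, fewer cells that express a gene and less RNA per cell cannot be told apart.

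**Figure D3:**
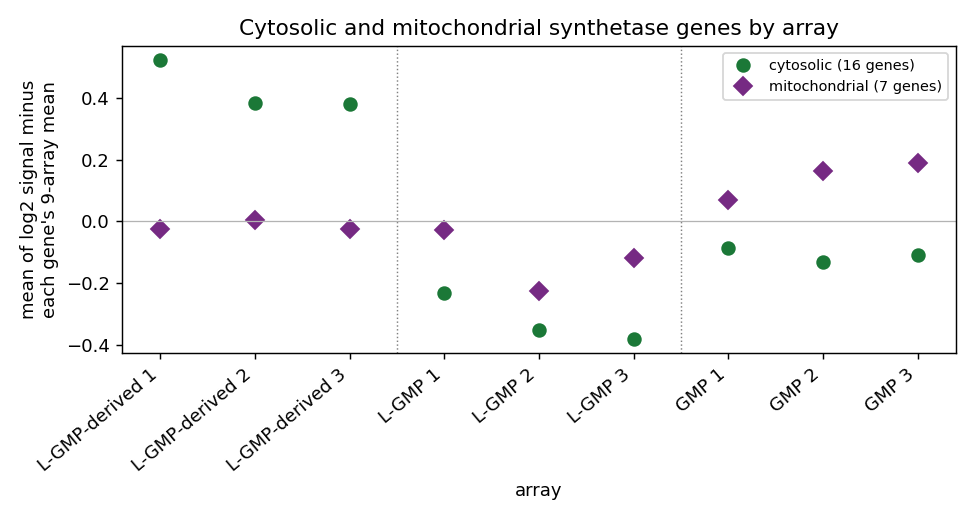
Mean log2 deviation from each gene's 9-array mean (y axis) for 16 cytosolic (circles) and 7 mitochondrial (diamonds) synthetase genes on each of the 9 arrays (x axis). The cytosolic means lie between 0.38 and 0.52 on the L-GMP-derived arrays and below 0 on the L-GMP and GMP arrays.

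Enzymes for the same amino acid in the 2 compartments could be set side by side for 7 amino acids. Tars2, the mitochondrial threonyl-tRNA synthetase gene, had a signal (1431125_a_at) of 557, 522 and 513 in L-GMP-derived cells, 537, 403 and 610.3 in L-GMP, and 502, 485 and 519.8 in GMP. The groups overlapped, and the log2 fold change in L-GMP-derived cells was 0.08 against GMP and 0.06 against L-GMP, where Tars had 1.26 and 1.56. A second Tars2 probe set, 1436856_x_at, gave another picture: 732, 684 and 623 in L-GMP-derived cells, 342, 289 and 330.0 in L-GMP, and 458, 447 and 429 in GMP, with no overlap. Its log2 fold changes were -0.48 in L-GMP against GMP (adjusted p = 0.0128), 0.61 in L-GMP-derived cells against GMP (adjusted p = 0.00381) and 1.09 in L-GMP-derived cells against L-GMP (adjusted p = 8.44e-05). Which of the 2 probe sets reports Tars2 was not tested.

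Iars, the cytosolic isoleucyl-tRNA synthetase gene and a complex member, had a signal (1426705_s_at) of 2681, 2737 and 2681 in L-GMP-derived cells, 1519, 1569.5 and 1347 in L-GMP, and 2277, 2138 and 2379.7 in GMP. Iars2, its mitochondrial counterpart (1426735_at), had 449.9, 346 and 329 in L-GMP-derived cells, 273, 221 and 284 in L-GMP, and 274, 275 and 275 in GMP. For both genes all L-GMP-derived arrays lay above the others, and L-GMP lay below GMP for Iars but overlapped with it for Iars2. The log2 fold change in L-GMP-derived cells against L-GMP was 0.87 for Iars (adjusted p = 3.57e-05) and 0.53 for Iars2 (adjusted p = 0.0203). Leaving out L-GMP replicate 2 ended the Iars2 call (adjusted p = 0.0824). Against GMP, L-GMP-derived cells gave 0.25 for Iars (adjusted p = 0.0454) and 0.44 for Iars2 (adjusted p = 0.0532). That call of Iars ended in 7 of the 9 fits that left out 1 array, all but those without L-GMP-derived replicate 1 or L-GMP replicate 3, with adjusted p between 0.0510 and 0.166. L-GMP against GMP gave -0.62 for Iars (adjusted p = 0.000363), while the second Iars probe set, 1452154_at, gave 0.09 there (adjusted p = 0.802).

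Hars2, the mitochondrial histidyl-tRNA synthetase gene and the genomic neighbour of Hars, had a signal (1449371_at) of 151, 207 and 217 in L-GMP-derived cells, 189, 165 and 153 in L-GMP, and 192, 255 and 241 in GMP. L-GMP lay just below GMP and L-GMP-derived cells overlapped with both. The log2 fold change was -0.44 in L-GMP against GMP (adjusted p = 0.0878, and 0.0338 without L-GMP-derived replicate 1) and 0.17 in L-GMP-derived cells against L-GMP (adjusted p = 0.498).

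For glutamate and proline the mitochondrial enzymes are separate, and neither gene was called. Ears2, the glutamyl-tRNA synthetase gene (1451471_at), had a signal of 229.8, 283 and 250.3 in L-GMP-derived cells, 219.5, 240.3 and 212 in L-GMP, and 229.7, 243 and 271 in GMP. Pars2, the prolyl-tRNA synthetase gene (1427309_at), had 104, 109 and 116 in L-GMP-derived cells, 117, 111 and 118 in L-GMP, and 108, 143 and 113 in GMP. For both genes the groups overlapped in every comparison, and log2 fold changes over the 3 comparisons lay between -0.15 and 0.18, where Eprs had -0.63, 0.71 and 1.34. Rars2, for arginine, had -0.18, -0.23 and -0.05, against -0.20, 0.39 and 0.59 for Rars, and without L-GMP-derived replicate 1 Rars2 was called lower in L-GMP-derived cells than in GMP (log2 fold change -0.36, adjusted p = 0.030). For phenylalanine, Fars2 had -0.96, -1.01 and -0.05, and the cytosolic subunit values are those given for Farsa and Farsb.

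By enzyme family, synthetases form classes I and II, which differ in the fold of the catalytic domain. Among cytosolic and dual-compartment genes, 7 of 9 class II genes and 4 of 8 class I genes were higher in L-GMP-derived cells than in GMP. The same counts, 7 of 9 and 4 of 8, held against L-GMP. Median log2 fold changes were 0.55 for class II and 0.33 for class I against GMP, and 1.05 and 0.45 against L-GMP. Eprs, whose protein holds a domain of each class, was left out of this split. Of the 6 tested genes whose products belong to the multi-synthetase complex (Eprs, Iars, Kars, Lars, Qars and Rars), 5 were higher in L-GMP-derived cells than in GMP and the same number against L-GMP, all but Qars. Of the 12 outside the complex, 7 were higher in each comparison. Of all genes, 13.4% were higher in L-GMP-derived cells than in GMP and 16.6% than in L-GMP. None of these splits was tested.

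Several genes had more than 1 tested probe set, 12 in all. For Aars, Eprs, Iars, Nars and Sars each tested probe set was called higher in L-GMP-derived cells against GMP. In L-GMP against GMP, each of the 7 lower genes with several tested probe sets (Hars, Wars, Eprs, Iars, Farsb, Nars and Fars2) had 1 that was called lower. Probe sets differed in sign there for Iars, Wars, Sars, Tars2 and Qars, the glutaminyl-tRNA synthetase gene. One of the 4 Qars probe sets, 1423712_a_at, was called higher in L-GMP-derived cells against GMP (log2 fold change 0.48, adjusted p = 0.00972), while the brightest had 0.12 (adjusted p = 0.411). Of the 48 member probe sets, 13 have names ending in _x_at or _s_at and can also bind related transcripts.

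**Figure D4:**
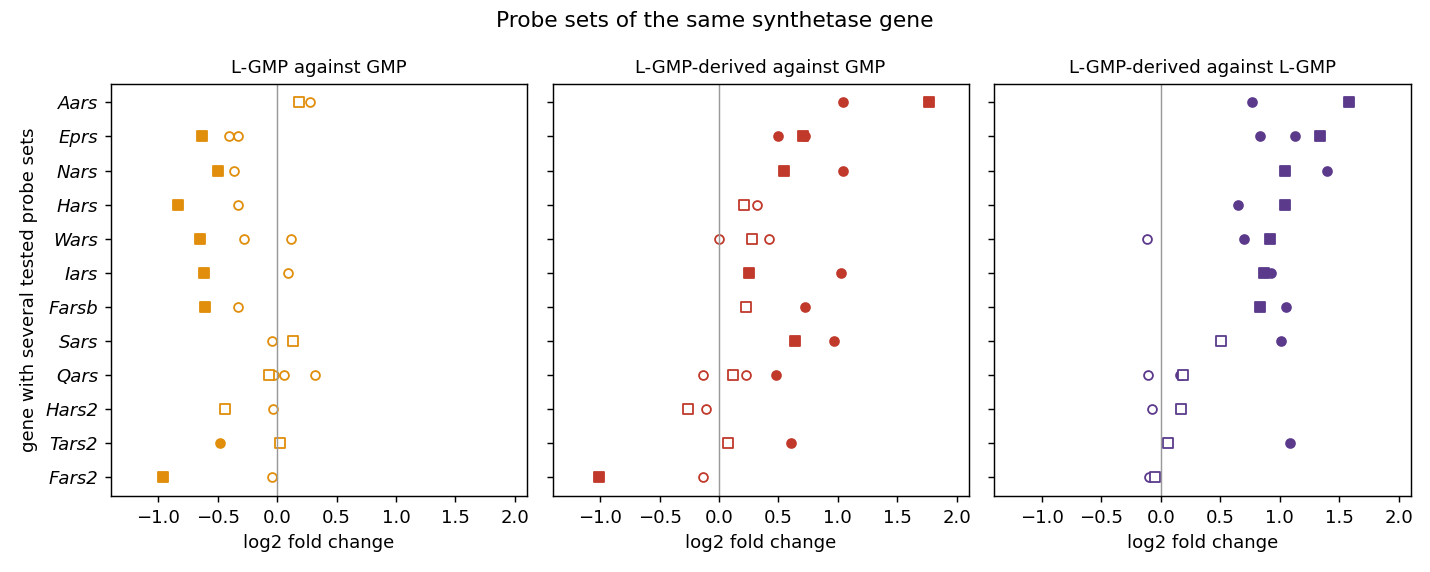
Log2 fold changes (x axis) of every tested probe set of the 12 synthetase genes with more than 1 (y axis), in the 3 comparisons. Squares are the brightest probe set of a gene and circles the others, filled where the adjusted p was below 0.05; Fars2, Tars2 and Wars show a called and an uncalled probe set far apart, as with -0.96 and -0.04 for Fars2 in L-GMP against GMP.

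Promoter sequence was read for the members because several moved together in L-GMP-derived cells. RefSeq promoters of mouse build GRCm38.p6, from 250 bases before to 50 after the transcription start, were matched to 16 of the 25 tested genes: 11 cytosolic or dual-compartment and 5 mitochondrial. The motif TGATGNAA, the core of the element bound by C/EBP-ATF dimers that include ATF4, was searched on both strands. It was found in 5 of the 11 (45.5%), namely Aars, Gars, Iars, Tars and Yars, in 0 of the 5 mitochondrial promoters, and in 3.97% of all 32851 promoters. The windows below are shown for Aars, Tars and Gars, 3 of the 4 genes that were highest in L-GMP-derived cells against L-GMP. They are written 5′ to 3′ on the strand of the gene with the motif in capitals, which in all 3 is the reverse complement of TGATGNAA. The windows cover chr8:111033685-111033782 (plus strand) for Aars, chr15:11399659-11399718 (minus strand) for Tars and chr6:55037926-55038000 (plus strand) for Gars, and the motif begins at position -112, -15 and -30 from the start of transcription in turn. The Aars promoter has a second match at position 10.
Aars: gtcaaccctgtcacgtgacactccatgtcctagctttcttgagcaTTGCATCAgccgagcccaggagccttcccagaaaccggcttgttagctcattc
Tars: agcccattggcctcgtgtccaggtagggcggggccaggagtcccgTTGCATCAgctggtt
Gars: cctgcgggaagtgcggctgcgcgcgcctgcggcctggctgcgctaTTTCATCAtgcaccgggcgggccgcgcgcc

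In Iars and Yars the same motif lies just after the start, at positions 8 and 4, in chr13:49682126-49682155 and chr4:129189895-129189924 on the plus strand.
Iars: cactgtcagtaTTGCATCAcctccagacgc
Yars: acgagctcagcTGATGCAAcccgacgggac

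The 5 genes with the motif had median log2 fold changes of -0.30 in L-GMP against GMP, 0.79 in L-GMP-derived cells against GMP and 1.33 in L-GMP-derived cells against L-GMP. The 6 cytosolic or dual-compartment genes without it (Eprs, Farsa, Farsb, Kars, Qars and Sars) had -0.05, 0.42 and 0.51. In L-GMP-derived cells against GMP, 4 of the 5 and 4 of the 6 were higher, and against L-GMP 4 of the 5 and 3 of the 6. The shares of all genes were 13.4% and 16.6%. Yars, the tyrosyl-tRNA synthetase gene, holds the motif and was not called (log2 fold change 0.40 against GMP, adjusted p = 0.0552). CACGTG, the E-box read by the Myc family, was in 4 of the 11 promoters (36.4%), 1 of the 5 mitochondrial ones (20%) and 7.15% of all promoters, and one copy lies in lower case in the Aars window. CCGGAAG, a core read by ETS factors, was in 4 of the 11, 1 of the 5 and 8.86% of all promoters. Such matches describe the letters of these windows, and no binding was measured.

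Other genes of the charging and sensing pathway were counted in hand-made lists. Beside these counts, 13.4% of all genes were higher and 10.7% lower in L-GMP-derived cells than in GMP. Against L-GMP the shares were 16.6% and 14.1%, and in L-GMP against GMP 13.1% and 12.8%. Of the 3 scaffold genes of the multi-synthetase complex, Aimp1 and Eef1e1 were higher in L-GMP-derived cells than in GMP (log2 fold changes 0.64 and 0.55, adjusted p = 0.0116 and 0.0253) and than in L-GMP (0.45 and 0.90). The third, Aimp2, had 0.34 and 0.36 and was not called. Of 8 tested accessory genes of tRNA charging, 1 was higher in L-GMP-derived cells than in GMP, Mtfmt, which formylates the mitochondrial initiator tRNA (log2 fold change 0.43, adjusted p = 0.0238). Pstk, a kinase that acts on tRNA charged with serine on the way to selenocysteine, was lower in L-GMP than in GMP (log2 fold change -0.66, adjusted p = 0.0187) and higher in L-GMP-derived cells than in L-GMP (0.75, adjusted p = 0.00874).

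A list made for the sensing of uncharged tRNA had 7 tested genes. It is broader than that sensing, as it also holds other eIF2 kinase genes (Eif2ak1 and Eif2ak3) and eIF2 phosphatase subunit genes (Ppp1r15a and Ppp1r15b). Eif2ak4, which encodes GCN2, was not called in any comparison (log2 fold changes between -0.24 and -0.11). Atf4 was higher in L-GMP-derived cells than in GMP and L-GMP, by log2 fold changes of 0.25 (adjusted p = 0.00918) and 0.37 (adjusted p = 0.000796). Its mean signal (± SD of 3 arrays) was 6776 ± 577 in L-GMP-derived cells, 5248 ± 120.0 in L-GMP and 5692 ± 90.7 in GMP. In all, 2 of the 7 were higher and 1 was lower in L-GMP-derived cells than in GMP, 2 were higher than in L-GMP, and 2 were lower in L-GMP than in GMP. Ppp1r15a was the 1 lower gene and 1 of the 2 lower in L-GMP. Its GMP signals were 98.4, 594 and 451, the first within its L-GMP-derived range of 88.2 to 105. Without the GMP arrays it would not have reached the signal of 111 on at least 3 arrays, so its calls are tied to that filter. Of 11 tested amino acid response markers, 8 were higher in L-GMP-derived cells than in GMP and 9 higher than in L-GMP. The shares of all genes were 13.4% and 16.6%, and the median log2 fold changes of the markers 1.25 and 1.81. Trib3 and Chac1, counted as higher in both, would not have reached the signal of 111 on at least 3 arrays without the L-GMP-derived arrays. Their calls are therefore tied to that filter. In L-GMP against GMP 2 of the 11 were lower, against 12.8% of all genes. The median of 0 there is the value of Trib3, whose signals lay under the floor of 62.4 on all L-GMP and GMP arrays. It thus does not measure a lack of change. The markers include Asns, which makes asparagine (log2 fold change 2.96 against GMP in L-GMP-derived cells), and Mthfd2, a mitochondrial folate enzyme gene (1.82). The summed signal of the 12 markers measured was 21016 to 30056 on the L-GMP-derived arrays, 6076 to 6648 on the L-GMP arrays and 11143 to 11374 on the GMP arrays. Most of the gap between L-GMP and GMP in this sum came from Phgdh, a serine synthesis gene, whose mean signal was 299.7 in L-GMP and 4214 in GMP. The part of this response in the synthetase values was not tested.

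Translation factors were counted beside the synthetases. Of 23 tested cytosolic initiation factor genes, 9 were higher and 0 lower in L-GMP-derived cells than in GMP, and 12 higher and 0 lower than in L-GMP. In L-GMP against GMP 2 were higher and 2 lower. In the same order of comparisons, the shares of all genes higher and lower were 13.4% and 10.7%, 16.6% and 14.1%, and 13.1% and 12.8%. The counts of 0 were also 0 at an unadjusted limma p below 0.05. Eif2b5, a subunit gene of the exchange factor for eIF2, had the largest change against GMP in L-GMP-derived cells (log2 fold change 1.18, adjusted p = 0.00167). Its signals of 68.7 to 78.7 in GMP and 63.6 to 103 in L-GMP lay under the filter signal of 111. It was therefore tested only through the L-GMP-derived arrays, where it is high, and its call is tied to that filter. Of 5 genes listed as cytosolic elongation factors, Eef1a1 and Eef2 were higher in L-GMP than in GMP. Eef2 and Eef1e1 were higher in L-GMP-derived cells than in GMP, and Eef1d and Eef1e1 in L-GMP-derived cells than in L-GMP. Eef1e1 is the complex scaffold gene named above, and its calls are counted in both lists. Of 5 mitochondrial translation factor genes, 1 was higher in L-GMP-derived cells than in GMP (Mtif2, log2 fold change 0.65, adjusted p = 0.0137) and 3 were higher than in L-GMP. Gfm1, an elongation factor gene of mitochondria, was the 1 lower in L-GMP than in GMP (log2 fold change -0.48).

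Markers of other blood cells differed between groups alongside the synthetases. The summed signal of 6 mast cell, eosinophil and basophil markers was 204 to 279 on the L-GMP-derived arrays, 3101 to 4856 on the L-GMP arrays and 1092 to 1361 on the GMP arrays. In L-GMP it came mostly from Prg2 and Cpa3, with mean signals of 2669 and 1102. Ms4a2, Fcer1a and Epx of this list were too dim to be tested, so the sum is not read as a cell type. That of 6 T and NK cell markers was 801 to 817 on the L-GMP-derived arrays, 2019 to 2512 on the L-GMP arrays and 2876 to 3168 on the GMP arrays, in L-GMP and GMP mostly from Nkg7. That of 6 B cell markers was 2270.2 to 5812 in L-GMP-derived cells, 4905 to 6020 in L-GMP and 3655 to 4275 in GMP, and that of 5 erythroid markers 899 to 963, 935 to 982 and 1012 to 1063 in the same order of groups. The highest B cell sum in L-GMP-derived cells was that of replicate 1, the array that stood apart. Its Ighm signal was 3743, against 605 and 881 on replicates 2 and 3. Against GMP, 3 of 3 tested mast cell, eosinophil and basophil markers, 1 of 3 T and NK cell markers, 1 of 4 B cell markers and 0 of 3 erythroid markers were lower in L-GMP-derived cells. Of all genes, 10.7% were lower there, and in L-GMP against GMP 13.1% were higher and 12.8% lower. In L-GMP against GMP, 1 of the 3 tested mast cell, eosinophil and basophil markers was higher and 1 lower, 1 of 3 T and NK cell markers was lower, and 0 B cell or erythroid markers were called, also at an unadjusted limma p below 0.05. Mcpt8, counted as lower than in GMP in both L-GMP-derived cells and L-GMP, reached the signal of 111 only on the GMP arrays (152 to 173). Prg2, the 1 counted as higher in L-GMP, would not have reached it on at least 3 arrays without the L-GMP arrays. Their calls are therefore tied to that filter. In L-GMP-derived cells the mast cell gene Cpa3 averaged 2.45, under the floor. The part of these marker differences, and of the beta-actin and Gapdh ratios, in the synthetase values was not tested.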

How the data were processed

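RNA of sorted or cultured mouse cells was hybridised to Affymetrix arrays, 3 per group. The authors deposited 1 table of processed array intensities, 1 linear signal per probe set and array. MAS5 (version 5) is named in the submitters' processing notes. Not given in the sources used here are the background correction, the way probes were summarised and the array scaling, and 0.939% of values are negative. Genes were named from the platform annotation, in which 20393 probe sets had 1 symbol, 691 several and 1606 none. The GMP array whose title has no number is replicate 1 here. Members and lists were chosen with earlier results of these data known.

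Values below 62.4 (25th percentile) were set to that floor, which understates changes of dim probe sets, and log2 was taken; probe sets above 111 (40th percentile) on at least 3 of 9 arrays were tested. limma 3.58.1 in R 4.3.3 was fitted to all 9 arrays with 3 group means and an intensity trend (6 residual degrees of freedom), two-sided, with Benjamini-Hochberg adjustment, and was tested on simulated data. A fold is taken between mean log2 signals. The number of arrays limits precision.

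Values on each array are given for, per comparison, the 4 called members of largest rise and the 4 of largest fall among those with non-overlapping groups, each mitochondrial member called, and their counterparts in the other compartment. Of other lists, counts and up to 4 called members with the largest change were to be named. Aimp2, Eif2ak4, Gfm1, Phgdh, Nkg7, Cd34 and Cpa3 were chosen after their values were seen. So were other list members that were not called or not tested. The 23 alternatives comprised 9 fits without 1 array and 14 other settings.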

Additional observations from a re-analysis of the deposited data

How the results depend on the processing

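Over 23 alternatives, the count of members higher in L-GMP against GMP was 1 in each, and those in L-GMP-derived cells against L-GMP ran from 11 to 15 higher (12 to 14 without 1 array) and were 0 lower in each. Without probe sets that can bind related transcripts, 3 members, in place of 8, were lower in L-GMP against GMP (7 to 10 without 1 array), 0, in place of 1, were lower in L-GMP-derived cells against GMP, and the cytosolic minus mitochondrial median was 0.18 in L-GMP against GMP (-0.16 to -0.01 without 1 array) and 0.53 in L-GMP-derived cells against L-GMP (0.74 to 0.89 without 1 array). Under that setting Iars and Wars turned to log2 fold changes of 0.0943 (adjusted p = 0.806) and 0.11 (0.542) in L-GMP against GMP, and Wars to -0.12 (0.512) in L-GMP-derived cells against L-GMP, since another probe set then stands for them. In L-GMP-derived cells against GMP, 7, in place of 12, members were higher with a fold of at least 1.5 asked for, and 7 to 11 without 1 array (7 without GMP replicate 2 or GMP replicate 3), while array weights gave 16 and averaging a gene's probe sets 15; 3, in place of 1, were lower with array weights and 1 to 2 without 1 array (2 without L-GMP-derived replicate 1). There the cytosolic minus mitochondrial median of 0.53 was 0.69 when probe sets of a gene were averaged, and 0.40 (without GMP replicate 2) to 0.67 (without GMP replicate 1) without 1 array. With the replicate number as a replicate block, 9 members were higher in L-GMP-derived cells against GMP, 8 lower in L-GMP against GMP and 13 higher in L-GMP-derived cells against L-GMP. The labels name nothing else that links same-numbered arrays. Of their 9 pairs, 1 correlated above 0.1 in deviations from group means (-0.309 to 0.17), while differently numbered pairs reached 0.3. Such correlations cannot tell whether same-numbered arrays share an animal or a batch. The cause of the changes between settings, apart from the change of probe set, was not tested. A fold of at least 1.5 gives no median. Groups of 3 arrays, an unknown summary method and signals near the floor limit what small changes could be seen.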
